A study of Mus musculus with 4 samples.

Results

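Heat shock proteins and J domain (DnaJ) proteins are the molecular chaperones of the cell, and their ribosome-bound mRNAs were examined here in CA1 neurons of the mouse hippocampus after sleep loss. The members were the protein-coding genes of the deposited table whose symbol begins with Hspa or Hspb and a digit, with Hsp90, or with Dnaja, Dnajb or Dnajc, together with Hspd1, Hspe1 and Hsph1. This gave 69 genes of the 28193 in the table, of which 16973 are protein-coding. By the known location of the protein, 44 members belong to the cytosol and nucleus, 13 to the endoplasmic reticulum (ER) and 9 to mitochondria, and 3 (Hspb11, Dnajc4 and Dnajc25) were not assigned. More than 5 counts in every library were found for 64 members, and these were tested.

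The libraries came from fosTRAP-seq, in which RNA bound to HA-tagged ribosomes is pulled down from neurons that expressed Fos in a tagging window. Male C57BL/6J mice aged 3 to 5 months had received a cocktail of 2 AAV vectors in CA1, one with a Fos-driven Cre that needs 4-OHT to act and one with a Cre-dependent HA-tagged Rpl22, and all of them, controls included, were sleep deprived for 5 h on day 0 with 4-OHT to tag the active cells. On day 7 the SD mice were kept awake again for 5 h by gentle handling from the start of the light phase and the NSD mice were not, and CA1 tissue of 5 mice was pooled for each of the 2 libraries per group. The labels give the genotype cFos-Cre:Ribotag, the tissue dorsal hippocampus, and a batch number equal to the replicate number, so that each batch holds 1 NSD and 1 SD library. By design, every library therefore reports on cells tagged during sleep loss a week earlier. The SD against NSD comparison asks what a renewed period of wakefulness changed in them. The paper also describes background tagging in mice given vehicle in place of 4-OHT, and every library held markers of other cell types (below).

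Chaperones of the Hsp70 family bind unfolded stretches of other proteins in a cycle of ATP hydrolysis that J domain proteins start and that nucleotide exchange factors such as the Hsp110 proteins end, and Hsp90 takes over clients that are close to their mature fold. In the cytosol the inducible members are raised by heat shock factor 1, whose binding site is the heat shock element. In the ER the Hsp70 is BiP, encoded by Hspa5, and the unfolded protein response raises BiP and its helpers through sites that include the ER stress element. In neurons, J domain proteins also serve the synaptic vesicle cycle, with Dnajc5 (cysteine string protein) on the vesicle and Dnajc6 (auxilin) in the uncoating of clathrin.

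The promoters that carry these sites are shown first, and whether the sites were used in these cells was not tested. The window searched ran from 250 bases before to 50 bases into the canonical transcript (GENCODE annotation of GRCm39), on both strands, for 16858 protein-coding genes of the table. The full ER stress element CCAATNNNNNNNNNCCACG was present in 0.113% of all these promoters and in 3 of the 13 ER members (23.1%), namely Hspa5, Dnajc3 and Hsp90b1, and in none of the other members. The heat shock element with 3 units, GAANNTTCNNGAA, was present in 0.463% of all promoters and among the members only in the shared promoter of Hspd1 and Hspe1, the divergently transcribed genes of the mitochondrial chaperonin. The shorter pair of inverted units, GAANNTTC or TTCNNGAA, which lies inside the longer element, was found in 13.1% of all promoters and in 11 of the 44 cytosolic and nuclear members, among them Hspa1a, Hspa1b, Hsph1, Hspb1, Dnaja1 and Dnajb1. The cAMP response element TGACGTCA was in 2.79% of all promoters and in those of Hsp90ab1, Dnajc27 and Dnajc30. A match is a description of the letters only. The 200 bases before the start of the ER genes are given below with the ER stress elements in capitals, and for Hspe1 the 107 bases between its start and that of Hspd1 are given with the overlapping heat shock elements in capitals.
Hspa5, chr2:34661904-34662103, GRCm39, plus strand: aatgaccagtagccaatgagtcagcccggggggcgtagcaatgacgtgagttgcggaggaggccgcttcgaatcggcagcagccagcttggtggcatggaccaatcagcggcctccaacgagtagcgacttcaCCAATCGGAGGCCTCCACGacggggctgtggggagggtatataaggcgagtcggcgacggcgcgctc
Dnajc3, chr14:119175145-119175344, GRCm39, plus strand: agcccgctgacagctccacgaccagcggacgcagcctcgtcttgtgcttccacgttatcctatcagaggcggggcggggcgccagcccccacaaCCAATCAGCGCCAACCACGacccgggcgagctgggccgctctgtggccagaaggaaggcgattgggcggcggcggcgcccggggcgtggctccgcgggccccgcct
Hsp90b1, chr10:86541379-86541578, GRCm39, minus strand: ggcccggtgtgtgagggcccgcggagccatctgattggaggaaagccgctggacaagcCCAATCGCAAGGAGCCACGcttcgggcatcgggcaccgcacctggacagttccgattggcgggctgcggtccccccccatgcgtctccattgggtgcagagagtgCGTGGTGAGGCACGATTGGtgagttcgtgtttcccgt
Hspe1, chr1:55127184-55127290, GRCm39, plus strand: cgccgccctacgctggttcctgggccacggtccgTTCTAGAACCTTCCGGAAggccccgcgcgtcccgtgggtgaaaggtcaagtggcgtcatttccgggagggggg
The element of Hspa5 lies 67 to 49 bases before the start and that of Dnajc3 lies 106 to 88 bases before it, while Hsp90b1 holds an element on each strand. The deposited table starts Hspa5 at base 34661982, inside the stretch shown, and Dnajc3 at base 119175388, after it.

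The totals per library lay between 153511705 and 195910235 estimated counts, so counting error matters for rare members alone and the spread between 2 pools per group sets the precision. Markers of CA1 pyramidal cells summed to 6008 to 6522 CPM (counts scaled to a common library total) in the 4 libraries. Of the 9 marker lists (52 genes), the endothelial list differed most between the groups, with non-overlapping lower SD values for 6 of its 8 genes and sums of 46.2 and 63.9 CPM in NSD against 37.3 and 23.9 CPM in SD. Mural markers were lower in both SD libraries for 3 of 6 genes (61.2 to 65.1 CPM in NSD, 48.3 to 58.4 in SD), ciliated ependymal markers for 1 of 3 (18.8 and 74.8 CPM in NSD, 31.1 and 8.98 in SD, with a spread that is mostly that of Ttr, whose groups overlapped) and microglial markers for 1 of 6 (57.6 to 72.8 and 55.3 to 72.4 CPM). CA1 pyramidal markers were lower in both SD libraries for 3 of 7 genes and higher for 1. Astrocyte markers summed to 599 to 671 CPM in NSD and 642 to 677 in SD, with 2 of 7 genes higher in both SD libraries. Oligodendrocyte markers summed to 1539 to 1862 and 1713 to 1799 CPM with 1 of 6 genes higher and 1 lower, interneuron markers to 774 to 810 and 719 to 796 CPM with 1 of 6 higher, and dentate granule markers to 31.6 to 40.4 and 33.4 to 36.9 CPM with 0 of 3 on either side. In pull-downs from pooled tissue, fewer cells of a type and less RNA per cell cannot be told apart. How much of each marker came from untagged cells was not tested.

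No chaperone gene passed the test of SD against NSD in the unpaired edgeR fit. With the batches paired in edgeR, or with DESeq2 and no pairing, 3 genes (Hspa5, Dnajc3 and Dnajc27) did. The paper, which used DESeq2 with the same limits, also names Dnajc3 among its upregulated genes. With edgeR's quasi-likelihood test and Benjamini-Hochberg adjustment over 22338 genes, 0 of 64 members were called, higher or lower (adjusted p below 0.05, more than 1.2-fold), where 3.10% of all genes tested were called (0.952% of protein-coding genes higher and 0.540% lower). At an unadjusted p under 0.05 there were 6 members higher in SD (9.38%, against 8.86% of the protein-coding genes) and 1 lower (1.56%, against 5.76%). DESeq2 called 2 members higher, Dnajc27 and Dnajc3 (3.12% of members, against 3.91% of the protein-coding genes), and 0 lower. When the batch number was used as a replicate block, edgeR called 2 higher, Hspa5 and Dnajc3 (3.12% against 3.77%), and 0 lower. With the block and no fold limit 7 members were higher at an adjusted p under 0.05 (10.9% against 6.52%), namely Hspa4, Dnajb1, Dnajb5, Dnajc27, Dnajc15, Hspa5 and Dnajc3. In edgeR without the block, leaving out NSD replicate 2 gave log2 fold changes of 0.56 for Hspa5 and 0.40 for Dnajc3. Leaving out NSD replicate 1 gave 0.06 and 0.22.

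**Figure D1:**
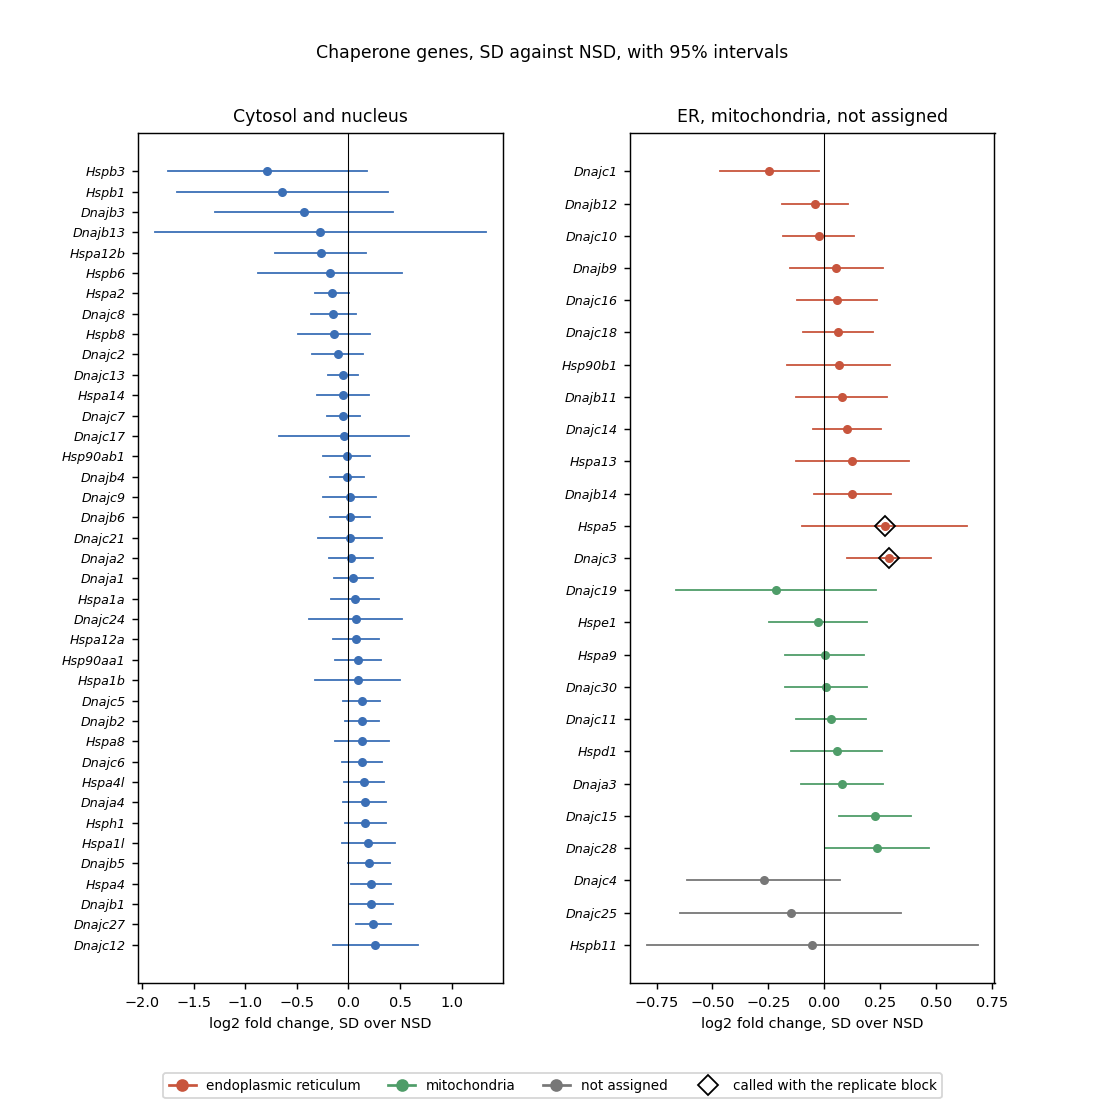
Log2 fold change of SD over NSD (x axis) for the 64 tested members (y axis), as edgeR's estimate (points) with its 95% interval (lines), n = 2 libraries per group, colored by location, with diamonds around the genes called when the batch was a replicate block. Most points lie near 0, Hspa5 and Dnajc3 have the largest values, and the widest intervals belong to rare genes such as Dnajb13 and Hspb3.

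The log2 fold change had a median of 0.02 over the 39 tested members of the cytosol and nucleus, 0.06 over the 13 of the ER and 0.03 over the 9 of mitochondria, beside -0.02 over all genes tested and 0.02 over protein-coding genes. Leaving out NSD replicate 2 moved these medians to 0.15, 0.14 and 0.08. For 18 members both libraries of the SD group lay above both of the NSD group (28.1%, against 26.5% of protein-coding genes) and below both for 14 (21.9% against 20.0%). The 95% interval of 60 members lay within a 2-fold change on both sides, and for 19 members it lay within the 1.2-fold limit on both sides. For the 47 tested members above 10 CPM the half-width of the interval was 0.15 to 0.41 on the log2 scale, with a median of 0.19, so that changes near the 1.2-fold limit (0.26 on the log2 scale) were at the edge of what this design resolves.

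Among the Hsp70 proteins of the cytosol, Hspa8 (Hsc70, the constitutive form) measured 943 and 1039 CPM in NSD and 999 and 1173 CPM in SD. The groups overlapped, and the log2 fold change was 0.13 with a 95% interval of -0.13 to 0.39. Hspa1a, a stress-inducible Hsp70, measured 14.9 and 13.8 CPM in NSD and 14.0 and 15.97 CPM in SD. Its near-identical copy Hspa1b measured 10.9 and 14.0 CPM in NSD and 10.9 and 15.7 CPM in SD. Neither inducible gene separated the groups, with log2 fold changes of 0.06 (-0.17 to 0.30) and 0.09 (-0.32 to 0.50). Their transcripts were 99.0% identical over 2215 aligned bases, so reads may be divided between them, and with their counts summed the log2 fold change was 0.08 (-0.18 to 0.34, edgeR adjusted p = 0.795). Hspa2, an Hsp70 best known from testis, was at 34.6 and 35.2 CPM in NSD and at 30.4 and 32.2 CPM in SD, the SD group lying wholly below the NSD group, with a log2 difference of -0.16 (-0.32 to 0.00, edgeR adjusted p = 0.275). The other 4 genes of this class ran from -0.27 (Hspa12b) to 0.19 (Hspa1l), with 0 below an unadjusted p of 0.05 in edgeR and 0 called by DESeq2.

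Hspa12b, a distant Hsp70 relative known from endothelial cells, was at 3.20 and 3.39 CPM in NSD and 3.02 and 2.45 CPM in SD. Of the endothelial markers, 6 of 8 were lower in both SD libraries and none was called. The part of that cell type in the value of Hspa12b was not tested. On the opposite strand it shares 2151 exon bases with 1700037H04Rik, whose counts were higher than its own.

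The cytosolic Hsp90 genes had values near 0. Hsp90ab1, the constitutive form, was at 818 and 891 CPM in NSD and 805 and 883 CPM in SD, with a log2 fold change of -0.02 (-0.25 to 0.21). The inducible form Hsp90aa1 was at 413 and 473 CPM in NSD and 451 and 492 CPM in SD, with a log2 fold change of 0.09 (-0.13 to 0.32). In both genes the batches differed more than the groups, replicate 2 being the higher library in NSD and in SD alike.

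The Hsp110 proteins, which release ADP from Hsp70, had values on the SD side in all 3 genes. Hspa4 was at 245 and 266 CPM in NSD and 286 and 308 CPM in SD, a log2 fold change of 0.22 (95% interval 0.03 to 0.41, edgeR adjusted p = 0.203, and 0.0405 with the replicate block). Hspa4l was at 234 and 254 CPM in NSD and 261 and 281 CPM in SD, a log2 fold change of 0.15 (-0.04 to 0.34). Hsph1 was at 194 and 222 CPM in NSD and 227 and 239 CPM in SD, a log2 fold change of 0.16 (-0.04 to 0.36). Both SD libraries exceeded both NSD libraries in the 3 genes, as in 26.5% of the protein-coding genes tested, and none passed both limits of a call in either fit.

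Of the J domain proteins of types A and B in the cytosol and nucleus, 10 of 12 were tested. Dnajb1, the classical heat-inducible partner of Hsp70, was at 31.3 and 35.3 CPM in NSD and 36.6 and 41.1 CPM in SD. Dnajb5, a close relative of Dnajb1, was at 126 and 142 CPM in NSD and 144 and 163 CPM in SD. Both genes had their SD libraries above their NSD libraries, with log2 fold changes of 0.22 (0.02 to 0.43) and 0.20 (-0.01 to 0.41). Their edgeR adjusted p-values were 0.221 and 0.284, and 0.0295 and 0.0402 with the replicate block, where both stayed under the 1.2-fold limit. Dnajb2, a neuronal J protein, gave 0.13 (-0.04 to 0.29) and Dnaja4 gave 0.16 (-0.06 to 0.37). The general Hsp70 partners Dnaja1, Dnaja2 and Dnajb6 gave log2 fold changes of 0.05, 0.02 and 0.01, each with overlapping groups and an interval within -0.19 to 0.24. The lowest values belonged to the rare Dnajb3 (0.44 to 0.68 CPM, -0.43, -1.29 to 0.43) and Dnajb13 (0.08 to 0.27 CPM, -0.27, -1.88 to 1.33), and Dnajb13 shares 1095 exon bases on the opposite strand with the more abundant Ucp2.

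The J proteins of type C combine the J domain with other functions, and 12 cytosolic or nuclear ones were tested. Dnajc27 (chr12:4132583-4160606), a small Rab-like GTPase with a J domain, was at 150 and 146 CPM in NSD and 182 and 168 CPM in SD. The 2 groups were apart by more than their spread, 148 ± 2.51 CPM (SD, n = 2) against 175 ± 9.60 CPM (SD, n = 2). Its log2 fold change of 0.24 (0.07 to 0.41) had an edgeR adjusted p of 0.116, and of 0.0191 with the replicate block, and DESeq2 called it with an adjusted p of 0.0105 at a log2 fold change of 0.26, just past the fold limit. The synaptic J proteins were abundant. Dnajc5 was at 401 and 413 CPM in NSD and 448 and 441 CPM in SD, and Dnajc6 was at 320 and 341 CPM in NSD and 349 and 376 CPM in SD. Their log2 fold changes were 0.13 (-0.06 to 0.31) and 0.13 (-0.06 to 0.32), with non-overlapping groups and edgeR adjusted p-values of 0.461 for both. Dnajc7, whose TPR repeats bind Hsp70 and Hsp90, gave -0.05 (-0.21 to 0.11), and it shares 670 exon bases on the opposite strand with Cnp, a more abundant oligodendrocyte gene. Dnajc12, a helper of aromatic amino acid hydroxylases, had the largest value of the cytosol at 0.26 (-0.15 to 0.67), with 3.69 and 5.03 CPM in NSD and 5.27 and 5.16 CPM in SD. Only NSD replicate 1 stood apart, and without it the value was 0.08, under that of Dnajc27 (0.29), while without NSD replicate 2 it was 0.50. The splicing-associated Dnajc8 had the smallest of this class at -0.15 (-0.36 to 0.07).

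Small heat shock proteins, which hold unfolded proteins without ATP, were scarce in these libraries and 4 of 7 were tested. Hspb8 was at 4.47 and 4.39 CPM in NSD and 3.88 and 4.17 CPM in SD, with a log2 fold change of -0.14 (-0.49 to 0.21). Hspb1 was at 0.470 and 0.598 CPM in NSD and 0.437 and 0.249 CPM in SD, with a log2 fold change of -0.64 (-1.66 to 0.38). Hspb3 was at 0.422 and 0.446 CPM in NSD and 0.238 and 0.264 CPM in SD, with a log2 fold change of -0.79 (-1.75 to 0.18, edgeR adjusted p = 0.368). All 4 tested genes of this class had values below 0 and 3 of them had both SD libraries below both NSD libraries (20.0% of the protein-coding genes tested did), but each interval spanned 0 and the counts behind Hspb3 were only 43 to 70 per library. Small heat shock proteins are made by vascular and glial cells as well as by neurons. Endothelial markers were lower in both SD libraries for 6 of 8 genes and mural markers for 3 of 6, with none called. Astrocyte markers were higher in both SD libraries for 2 of 7 genes and lower for 0. Oligodendrocyte markers were higher for 1 of 6 and lower for 1, and microglial markers were lower for 1 of 6. The part of these cell types in the values was not tested.

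In the ER the largest log2 fold changes were those of BiP and a J protein that works with it, and the call of BiP rests on the replicate block. Hspa5 (BiP, chr2:34661982-34667559 on GRCm39) was at 125 and 181 CPM in NSD and 167 and 202 CPM in SD. The groups overlapped, since NSD replicate 2 exceeded SD replicate 1, but within each batch the SD library was the higher one, by 0.41 on the log2 scale in batch 1 and by 0.16 in batch 2. The edgeR log2 fold change was 0.27 (-0.10 to 0.64) with an adjusted p of 0.430. With the replicate block it was 0.29 (0.14 to 0.44) with an adjusted p of 0.0154, and the gene was called higher. DESeq2 without the block gave an adjusted p of 0.661. Leaving out NSD replicate 2 gave 0.56 (edgeR adjusted p = 0.0416) and leaving out SD replicate 1 gave 0.40 (edgeR adjusted p = 0.0206). Without NSD replicate 1 it was 0.06 (edgeR adjusted p = 0.903) and without SD replicate 2 it was 0.14 (edgeR adjusted p = 0.699), so the unpaired value rests on single libraries.

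Dnajc3 (p58IPK, chr14:119175388-119219109), a J protein of the ER lumen that also restrains the kinases of the translation factor eIF2alpha, was at 39.7 and 45.8 CPM in NSD and 52.9 and 51.5 CPM in SD. Both SD libraries exceeded both NSD libraries, and the SD pools differed by less than the NSD pools did. Its log2 fold change of 0.29 (0.10 to 0.48) was the largest of all members, with an edgeR adjusted p of 0.0962. It was called higher with the replicate block (0.29, 0.15 to 0.44, edgeR adjusted p = 0.0113), by DESeq2 (0.31, adjusted p = 0.0169) and by edgeR without NSD replicate 2 (0.40, adjusted p = 0.0315). It was not called without NSD replicate 1 (0.22, edgeR adjusted p = 0.199), SD replicate 1 (0.27, 0.153) or SD replicate 2 (0.33, 0.0734).

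Of the other 11 ER members 8 had values above 0, all smaller than these, and 3 had values below 0. Hsp90b1 (Grp94, the ER form of Hsp90), whose promoter holds the ER stress element on both strands, was at 136 and 160 CPM in NSD and 145 and 165 CPM in SD, a log2 fold change of 0.06 (-0.17 to 0.29, edgeR adjusted p = 0.811, and 0.552 with the replicate block). Hspa13 (STCH), an Hsp70 relative of the ER, gave 0.12 (-0.13 to 0.38). The BiP partners Dnajb9, Dnajb11 and Dnajc10 gave 0.05, 0.08 and -0.03, each with an interval within -0.18 to 0.28. Dnajc1 was the member with the lowest p on the lower side, at 21.5 and 18.6 CPM in NSD and 17.3 and 16.5 CPM in SD, a log2 fold change of -0.25 (-0.47 to -0.03, edgeR adjusted p = 0.209, and 0.0532 with the replicate block). Dnajc1 shares 749 exon bases on the opposite strand with the more abundant Mllt10. The 5 J proteins of the ER membrane ranged from -0.04 (Dnajb12) to 0.13 (Dnajb14), with 3 of 5 above and 1 below in both SD libraries (26.5% and 20.0% of the protein-coding genes tested), 0 below an unadjusted p of 0.05 in edgeR and 0 called by DESeq2.

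**Figure D2:**
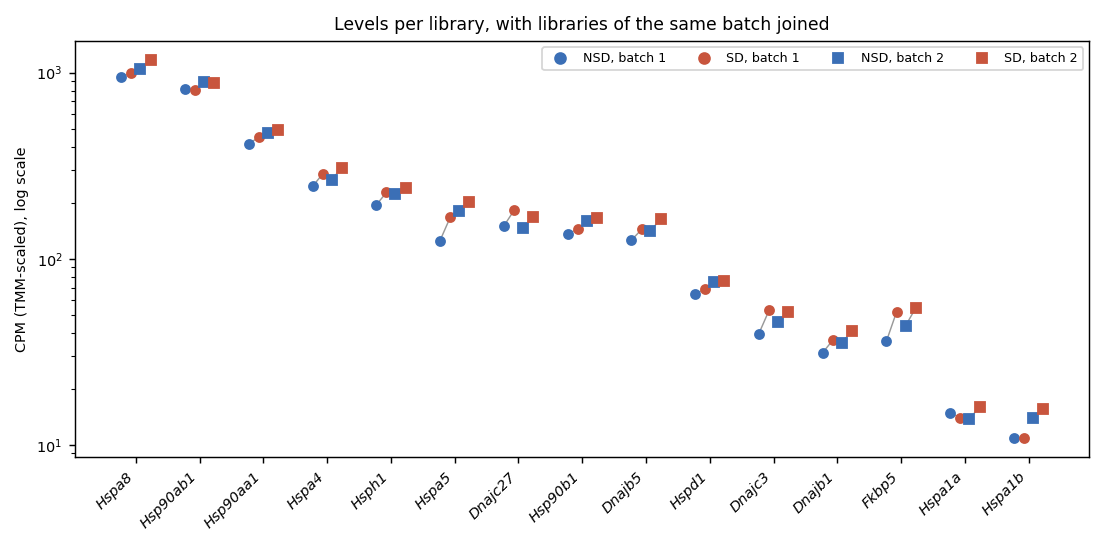
TMM-scaled CPM per library (y axis, log scale) for 14 members and the Hsp90 co-chaperone Fkbp5 (x axis), with NSD in blue and SD in red, circles for batch 1 and squares for batch 2, and lines joining the libraries of a batch. Hspa5 and Dnajc3 are higher in SD than in NSD within both batches, while Hsp90ab1 and the inducible Hspa1a and Hspa1b do not separate the groups.

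In mitochondria the main chaperones had values near 0. Hspa9 (mortalin, the mitochondrial Hsp70) was at 178 and 193 CPM in NSD and 181 and 190 CPM in SD, a log2 fold change of 0.00 (-0.18 to 0.18). Hspd1 (Hsp60) was at 64.6 and 75.3 CPM in NSD and 69.02 and 76.2 CPM in SD, a log2 fold change of 0.05 (-0.15 to 0.26). Its partner Hspe1 (Hsp10), which starts from the same promoter with its heat shock elements, was at 11.7 and 11.3 CPM in NSD and 11.2 and 11.3 CPM in SD, a log2 fold change of -0.03 (-0.25 to 0.19). A processed copy of Hspd1 took reads as well, with 4387 to 6252 estimated counts on Hspd1-ps3 beside 10711 to 14412 on Hspd1, so the level of Hspd1 depends on how the authors' model divided shared reads.

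Among the mitochondrial J proteins, Dnajc15, a part of the inner membrane import motor, was at 61.9 and 67.8 CPM in NSD and 76.9 and 74.9 CPM in SD. Dnajc28 was at 10.4 and 10.02 CPM in NSD and 11.5 and 12.5 CPM in SD. In both, the SD libraries lay above the NSD libraries. The log2 fold change of Dnajc15 was 0.23 (0.06 to 0.39, edgeR adjusted p = 0.122, and 0.0218 with the replicate block, under the fold limit), and that of Dnajc28 was 0.24 (0.00 to 0.47, edgeR adjusted p = 0.255). Dnaja3, the J partner of mortalin, gave 0.08 (-0.10 to 0.26). The motor protein Dnajc19 gave -0.22 (-0.66 to 0.23) and shares 374 exon bases on the opposite strand with the more abundant Fxr1.

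The 3 members with no location assigned had values below 0, the lowest being Dnajc4 at -0.27 (-0.61 to 0.07), with 5.23 and 5.38 CPM in NSD and 4.67 and 4.12 CPM in SD. The 5 members left out of the test had few counts. Dnajb7 had 20 and 24 estimated counts in NSD and 1 and 6 in SD, Dnajb8 had 0 and 16 in NSD and 8 and 3 in SD, and Hspb2 had 15.7 and 12 in NSD and 0 and 5.04 in SD. Hspb7 had 6 and 4 in NSD and 0 and 7 in SD, and Hspb9 had 19 and 7 in NSD and 19 and 0 in SD. Dnajb7 and Hspb2 had their SD counts below their NSD counts in both libraries and the other 3 overlapped. No test was made, since each had at least 1 library at or under 5 counts, and Hspb2 and Hspb9 lie on the opposite strand from the far more abundant Cryab and Rab5c, with which they share exon bases.

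Libraries of the same batch moved together in many members. Replicate 2 exceeded replicate 1 in both groups for 31 of 64 members (48.4%), where 32.3% of the protein-coding genes tested did so, and this included Hspa8, both cytosolic Hsp90 genes, the 3 Hsp110 genes, Hspa5 and Hsp90b1. Within both batches the SD library was above its NSD partner for 28 members (43.8%, against 36.6% of the protein-coding genes) and below it for 19 (29.7% against 29.2%). In the ER 8 of 13 members were above in both batches and 3 below, in the cytosol and nucleus 16 of 39 and 13, and in mitochondria 4 of 9 and 1. The difference between SD and NSD was larger in batch 1 than in batch 2 for Hspa5 (0.41 against 0.16) and Dnajc3 (0.41 against 0.17), and nearly equal for Hspa4 (0.22 and 0.21), Dnajb1 (0.23 and 0.22) and Dnajb5 (0.19 and 0.20).

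**Figure D3:**
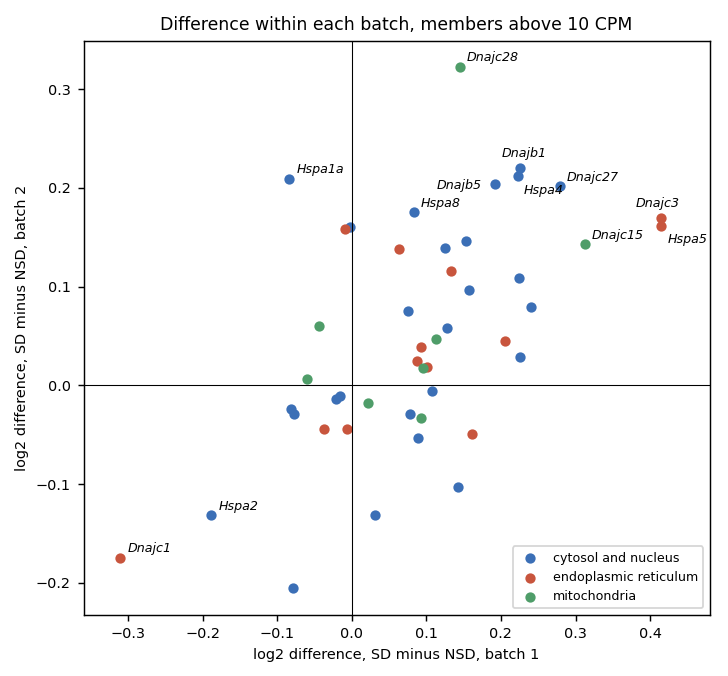
Log2 difference between the SD and the NSD library of batch 1 (x axis) and of batch 2 (y axis) for the 47 tested members above 10 CPM, 1 point per gene, colored by location. Hspa5 and Dnajc3 sit at the far right, both at 0.41 in batch 1, Dnajc28 is highest in batch 2 at 0.32, and Dnajc1 is lowest in batch 1 at -0.31.

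Read per length, with all annotated exons of a gene as its length, the highest members were cytosolic Hsp90 and Hsp70 genes. In CPM alone Hspa8 stood above Hsp90ab1 in each library (943 to 1173 against 805 to 891), so their order rests on the length used. In CPM per kilobase of exon, Hsp90ab1 was highest, with 151 and 165 in NSD and 149 and 163.5 in SD. Hspa8 followed with 109 and 120 in NSD and 115 and 135 in SD, and Hsp90aa1 with 89.7 and 103 in NSD and 98.0 and 107 in SD, and the libraries of these 3 neighbours in the order did not overlap. Hspa12a (47.5 to 55.8 over the 4 libraries) came next without overlap, and Hspa4 (36.1 to 45.5), Dnajc6 (36.6 to 42.9), Dnajc5 (36.8 to 41.1) and Hspa9 (34.7 to 37.6) then overlapped one another. The ER pair Hspa5 (22.6 to 36.4) and Hsp90b1 (22.2 to 27.0) overlapped too. Inducible Hspa1a had a mean of 4.83 in NSD and 5.05 in SD, far under Hspa8. Hspa8, Hsp90ab1 and Hsp90aa1 made up 37.6% to 39.0% of the summed CPM per kilobase of all members in each library.

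**Figure D4:**
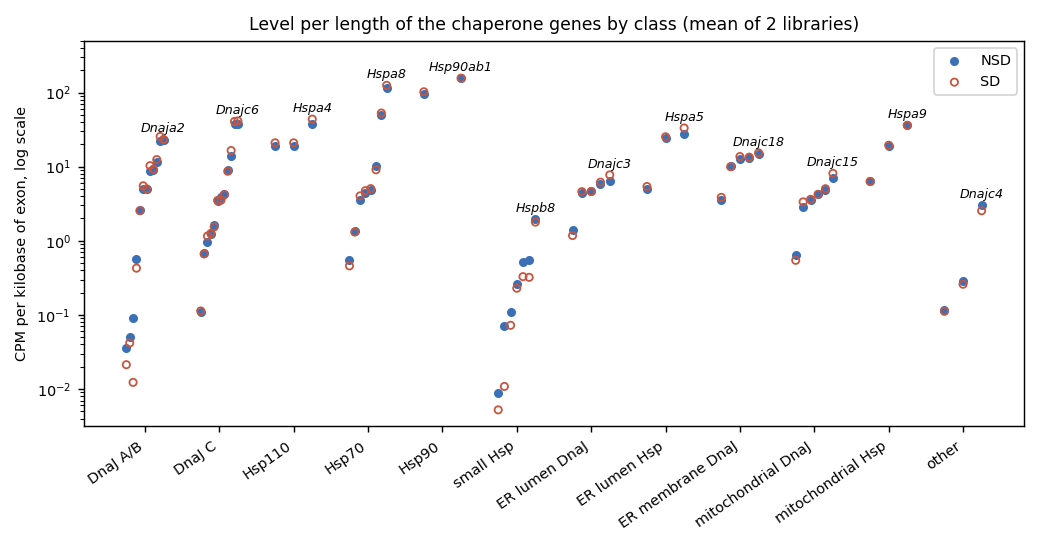
Level per length (y axis, CPM per kilobase of exon, log scale) of the 69 members by class (x axis), as the mean of 2 libraries in NSD (filled) and SD (open), with the highest gene of each class named. Filled and open points nearly coincide except for rare genes, and the cytosolic Hsp90 and Hsp70 genes stand highest.

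The regulators and helpers of the chaperones were read from a list of 56 genes, all tested. With edgeR 0 were called in either direction, 5 were higher (8.93%, against 8.86% of the protein-coding genes) and 0 lower at an unadjusted p under 0.05, and the median log2 fold change was 0.05. DESeq2 called 1 higher (Fkbp5, 1.79% against 3.91%), edgeR with DESeq2's size factors called the same gene, and the replicate block called 2 higher (Fkbp5 and Chordc1, 3.57% against 3.77%). In edgeR without the block, leaving out 1 library gave log2 fold changes of 0.31 to 0.56 for Fkbp5 and of 0.17 to 0.43 for Chordc1. Fkbp5 (chr17:28618068-28736501), a co-chaperone of Hsp90 in steroid receptor complexes and a classical target of glucocorticoids, was at 36.1 and 43.7 CPM in NSD and 51.9 and 54.4 CPM in SD. Both SD libraries exceeded both NSD libraries, with a log2 fold change of 0.42 (0.20 to 0.63, edgeR adjusted p = 0.0559, and 0.00104 with the replicate block). DESeq2 gave it an adjusted p of 0.00133, and without NSD replicate 1 the log2 fold change was 0.31 (edgeR adjusted p = 0.0873).

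Chordc1, a CHORD-domain partner of Hsp90, was at 27.3 and 33.5 CPM in NSD and 34.9 and 38.6 CPM in SD, a log2 fold change of 0.28 (0.04 to 0.52, edgeR adjusted p = 0.196, and 0.0127 with the replicate block). Without NSD replicate 1 it was 0.17 and without NSD replicate 2 it was 0.43 (edgeR adjusted p = 0.446 and 0.0435). Of the other Hsp90 co-chaperones, Fkbp4 was at 0.21 (0.02 to 0.40) and Ahsa2 at 0.28 (0.04 to 0.52), and Ahsa2 shares 3831 exon bases on the opposite strand with the more abundant Usp34. Hsf1, the factor that drives the heat shock response, was at 24.1 and 24.4 CPM in NSD and 24.1 and 23.4 CPM in SD, a log2 fold change of -0.03 (-0.20 to 0.14). Stip1, the adaptor between Hsp70 and Hsp90, gave 0.15 (-0.05 to 0.34). The heat shock target Bag3 gave -0.03 (-0.28 to 0.22), and Hyou1, the exchange factor of BiP, gave 0.08 (-0.15 to 0.30). The 14 chaperonin and prefoldin genes, whose products fold actin and tubulin, ran from -0.07 (Pfdn6) to 0.21 (Pfdn1), with 0 below an unadjusted p of 0.05 in edgeR and 0 called by DESeq2.

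**Figure D5:**
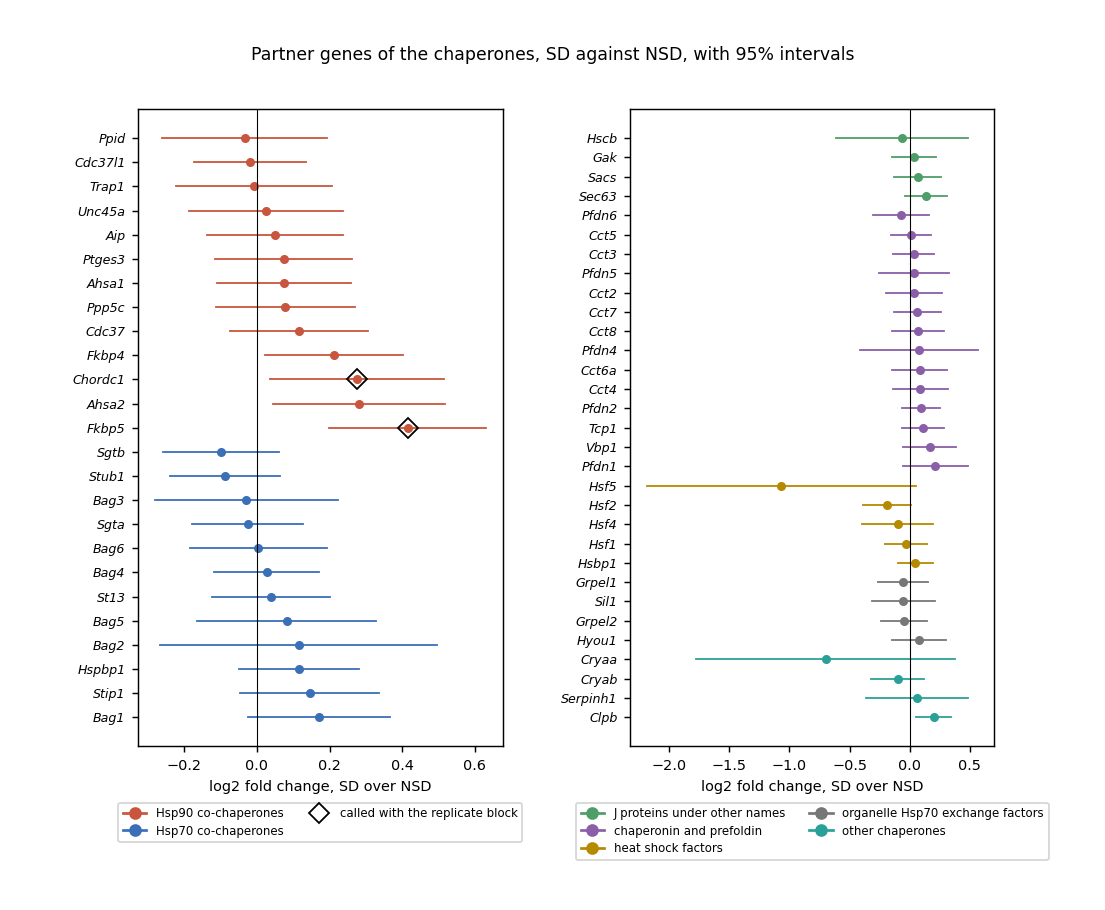
Log2 fold change of SD over NSD (x axis) for 56 partner genes (y axis) with 95% intervals from edgeR, n = 2 libraries per group, colored by class, with diamonds around the genes called with the replicate block. Fkbp5 at 0.42 and Chordc1 at 0.28 carry diamonds, and the interval of Hsf1 spans 0.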

How the data were processed

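Ribosome-bound RNA of 2 NSD and 2 SD pools was sequenced from stranded total RNA libraries with rRNA depletion. The authors aligned reads with STAR to mm39. The deposited values are estimated counts, not normalized, which Partek Flow assigned to Ensembl genes by expectation maximization. Here the counts were rounded and genes with more than 5 in every library (22338) entered a test in edgeR 4.0.16 under R 4.3.3 (TMM scaling, quasi-likelihood fit, condition as the only term, Benjamini-Hochberg adjustment). Genes were called at adjusted p below 0.05 and more than 1.2-fold difference. Intervals are 95% intervals from the fit, which share 1 prior for the spread across genes. Per-library log2 differences used a prior count of 2. CPM uses TMM-scaled totals, and CPM per kilobase divides by the exon length in GENCODE.

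Batch numbers in the labels equal the replicate numbers and pair the libraries. Across genes, the departures from the group mean of libraries with the same number correlated at 0.178. The fit with this replicate block, DESeq2 1.42.0, DESeq2's size factors, filterByExpr, no filter on counts, a fit on protein-coding genes, no fold limit, Hspa1a and Hspa1b summed, and each library left out in turn were the alternatives. Both tools were run on simulated counts with changes larger than those of the members here, so that run does not bear on changes of this size.

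The members and lists were chosen with earlier results of these data known. Genes named in the text were every member called with or without the block, the 5 largest and 5 smallest log2 fold changes, a fixed core, the members not tested, the partners Hsf1, Hyou1, Stip1, Bag3 and Fkbp5 and those called. Any other gene named was picked after their values were seen. Libraries are pools of different mice. Promoters and exon overlaps came from GRCm39, and gene copies were aligned with Biopython 1.88. Of the members, 16 share exon bases with a more abundant gene, all 16 on the opposite strand, and only some are named above. The libraries were stranded, and whether such reads were kept apart in the counts was not tested.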

Additional observations from a re-analysis of the deposited data

How the results depend on the processing

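With edgeR and no replicate block, 0 members and 0 partners were called. The replicate block, a paired fit on the batch, called 2 members and 2 partners higher, DESeq2 called 2 members and 1 partner higher, and DESeq2's size factors in edgeR called 1 partner higher. When a library was left out, its group held 1 library, which is assumed to vary like the others. Calls in those fits are not counted here. In the alternatives that kept all 4 libraries, 0 members and 0 partners were called lower. The median log2 fold change ranged from -0.0017 to 0.15 in the cytosol and nucleus, from 0.02 to 0.14 in the ER and from 0.015 to 0.079 in mitochondria when a library was left out, the highest values being those without NSD replicate 2. No count filter, filterByExpr, protein-coding genes only, no fold limit and the summed Hspa1a and Hspa1b left the counts of members at 0. Of 45 genes named by rule, 27 kept the sign of their log2 fold change in all these settings and 18 changed it in at least 1, Hsp90ab1, Hspa9, Hspe1 and Hspa1a among the latter. The block changed no other call. Depth limits the rarest members, with the 5 not tested, the small heat shock proteins, Dnajb13, Dnajb3 and Hspb11 among them.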
